A study of Caenorhabditis elegans with 6 samples.

Results

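The transcript levels of wild type Caenorhabditis elegans adults were described from the 3 libraries of the N2 laboratory strain, with no other group drawn in. They were chosen as the libraries labelled with the wild type genotype, and make up 3 of the 6 libraries of the study, whose other group carries a deletion of the long intergenic noncoding RNA gene linc-4. The members are the 22389 genes that carry a read count in the wild type libraries, out of 46904 rows in the deposited table. The worms were N2 adults grown on solid medium, and their polyadenylated RNA was sequenced from whole animals. The labels give neither the day of adulthood nor the sex, and do not say that the libraries came from separate cultures, so the SDs below measure the spread between these 3 libraries, which may be technical.

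The C. elegans hermaphrodite first makes sperm and then oocytes, and in the adult the germ line fills much of the body. The adult intestine makes yolk for the oocytes, and the epidermis lays down a collagen cuticle. Ribosomal proteins, which build the particle that translates mRNA, are among the most abundant mRNAs of growing animal tissue. The X chromosome is known in this species for its low transcription in the germ line, and genes expressed in germ cells are rare on it. In whole animals, fewer cells of a type and less RNA per cell cannot be told apart.

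Levels are given as CPM, the reads of a gene per 1000000 reads counted on genes in that library, which are shares of a library and not amounts per worm. A gene was counted as detected at 1 CPM or more in each of the 3 libraries. Ranks, level classes and shares of reads are by CPM unless stated. CPM per kb of annotated exon is used for the chromosome medians, for picking members of most lists, and where stated. The coefficient of variation, or CV, is the SD over the 3 libraries as a percent of their mean.

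The gene counts summed to 3736372 reads in wild type 1, 7428665 in wild type 2 and 5643577 in wild type 3. At these depths a count of 0 allows up to 0.803 CPM, 0.404 CPM and 0.532 CPM (3 reads, counting error only). Wild type 2 stood apart from the others by gene length. Its median log2 difference from the mean of the other libraries was 0.11 over the 192 detected genes with up to 300 bp of exon, and fell to -0.41 over the 349 detected genes with more than 5000 bp. Wild type 1 ran the other way, from -0.11 to 0.24, and wild type 3 stayed between -0.03 and 0.13. By construction the differences of each gene cancel out, so these trends are not independent of each other. Of the longest genes, 72.5% were lower in wild type 2 than in both other libraries, against 31.8% of the shortest. Over all detected genes the median difference of wild type 2 was -0.17 on the CPM scale and 0.02 after scaling by the trimmed mean of M values, so only the slope with length, and not the sign at middle lengths, held under both scalings. The labels name no batch. The length pattern is given beside the lists that it touches, and its part in those results was not tested beyond the values less the length class.

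**Figure D1:**
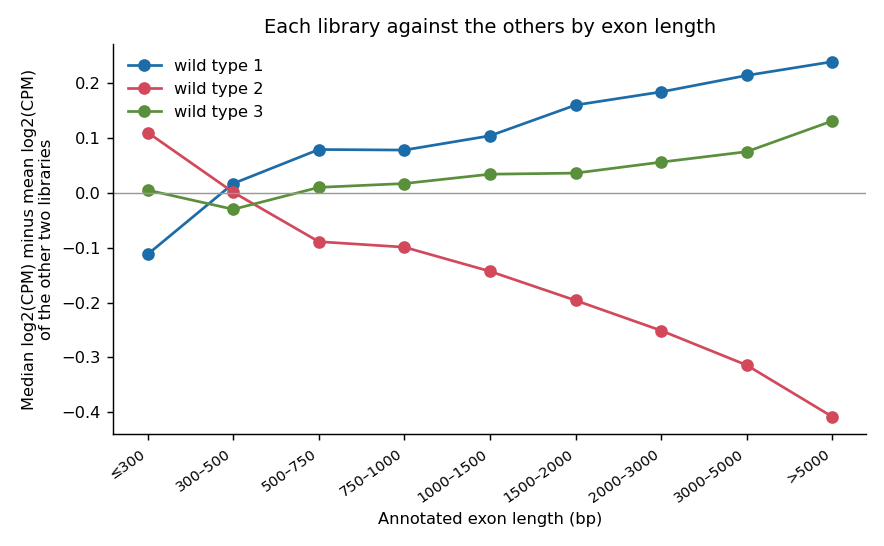
Median log2 difference (y axis) between each library's CPM and the mean of the other libraries, over detected genes grouped by annotated exon length in bp (x axis), with 1 line per wild type library. The line of wild type 2 falls from 0.11 to -0.41 with length, while those of wild type 1 and wild type 3 rise to 0.24 and 0.13. The lines are not independent, since the differences of each gene cancel out.

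Of the 22389 genes, 13086 (58.5%) were detected, and these held 99.7% of the reads. No read was counted for 2348 genes in any library, and 6955 had a read in at least 1 library without being detected. Of these 6955, 1976 had fewer than 3 reads in all libraries together, a level at which the depth does not allow a statement. At 1 CPM or more stood 14361 genes in wild type 1, 13785 in wild type 2 and 14401 in wild type 3. The deepest library therefore had the fewest genes past the threshold.

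The reads were concentrated in few genes. The 134 genes with a mean of 1000 CPM or more, 0.599% of all genes, held 45.1% ± 2.79 of the reads (SD, n = 3). The 1289 genes from 100 to 1000 CPM held 30.1% ± 1.05, and the 6173 genes from 10 to 100 CPM held 21.9% ± 1.58. At the low end, 6613 genes from 1 to 10 CPM held 2.63% ± 0.205 and the 8180 genes under 1 CPM held 0.200% ± 0.0264. The median detected gene stood at 14.2 CPM, with the middle 50% of detected genes between 4.73 and 44.1 CPM.

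The 10 highest genes by mean CPM held 9.39% ± 0.615 of the reads, the 100 highest 40.9% ± 2.43 and the 1000 highest 70.3% ± 2.15. The share of the 100 highest was 38.8% in wild type 1, 43.5% in wild type 2 and 40.3% in wild type 3. It took 240, 153 and 205 genes, in that order, to reach 50% of the reads. Wild type 2 was the most concentrated of the libraries by both measures. Without it the mean share of the 100 highest genes was 39.5% and the mean number of genes 222.5, against 199.3 ± 43.8 with it.

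**Figure D2:**
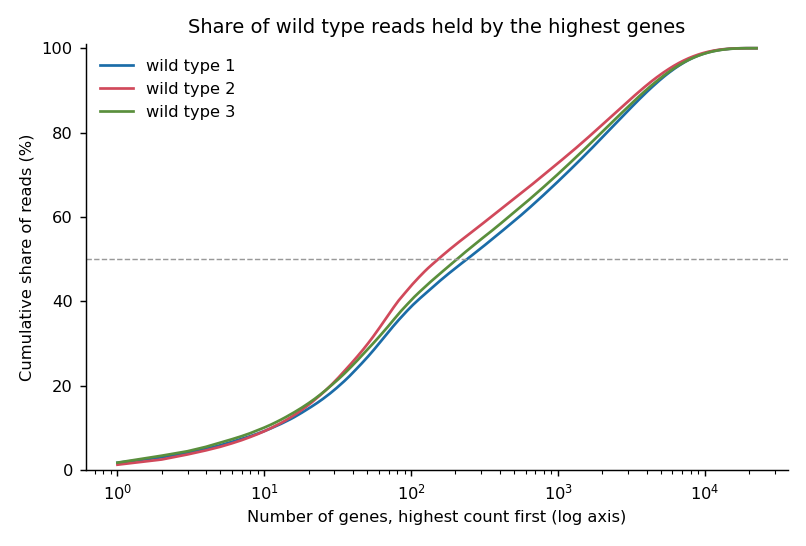
Cumulative share of reads in percent (y axis) against the number of genes taken from the highest count down (x axis, log scale), with 1 line per wild type library and a dashed line at 50%. Wild type 2 crosses the dashed line at 153 genes, wild type 3 at 205 and wild type 1 at 240.

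The cytosolic ribosomal protein genes led the ranking. Their 86 listed members held 32.4% ± 2.72 of all reads, with summed levels of 301597 CPM in wild type 1, 354336 CPM in wild type 2 and 316755 CPM in wild type 3. They took 74 of the 100 highest places, and 9 of the first 12. All but rpl-42 were detected, and all 85 detected members were among the 1000 highest genes. The median of the detected members was 6418 CPM per kb, beside 9.83 CPM per kb over all detected genes with a known exon length.

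The first gene of all was rpl-41.2, which encodes the smallest protein of the large ribosomal subunit. It stood at 13112, 12823 and 17725 CPM in wild type 1 to 3, a mean of 14553 ± 2751 CPM (SD, n = 3). The library farthest from the others was wild type 3. On the scale of CPM per kb it was first as well, at 51976 ± 9824 CPM per kb, over 280 bp of exon at I:4790292-4790649. The next ribosomal protein gene, rps-25 of the small subunit, had 10326, 12002 and 10406 CPM (mean 10911 ± 946). Another large-subunit gene, rpl-38, had 8631, 9636 and 10592 CPM (mean 9620 ± 980). The ranges of rps-25 and rpl-38 overlapped, so their order is within the spread of the libraries.

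Lower in the same family, rps-18 had 8066, 7582 and 9738 CPM and shares exonic bases with hhat-2. The small-subunit gene rps-3 had 5229, 6336 and 7076 CPM. The gene rla-1, which encodes an acidic protein of the stalk of the large subunit, differed by a CV of only 1.18% between the libraries. A long member, rpl-3 with 1456 bp of exon, had 5243, 5911 and 5079 CPM, or 3716 CPM per kb. Across the 85 detected members, exon length and CPM had a Spearman correlation of -0.08, and a slope of -0.10 on log2 scales. Over all 13078 detected genes with a length these were -0.07 and -0.23. CPM thus did not grow with annotated length here, and values per kb therefore place short genes higher.

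Of the detected ribosomal protein genes, 57 of 85 were highest in wild type 2. Their median log2 difference in that library from the others was 0.26 on the CPM scale and 0.44 after scaling by the trimmed mean of M values. Measured against the median of genes of the same length class it was 0.29. Without wild type 2 the family's share of the reads was 30.9%. The gene rpl-10, which had 3265, 5560 and 2966 CPM, showed the family's widest library difference among those named here.

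Y37E3.8, a protein-coding gene that the table names only by its sequence, took the seventh place with 7162, 8436 and 7050 CPM (mean 7549 ± 770). It lies on the minus strand at I:2069681-2070607, next to rla-1 at I:2069086-2069587 on the same strand. C37A2.7, at I:6789039-6789738, had 5215, 7417 and 5551 CPM and was placed in the ribosomal protein list after its level had been seen. It is described as 60S acidic ribosomal protein P2. Y37E3.8 carries no description and is not in that list, which does not show that it encodes another kind of protein. The levels of both show that genes without a class name can reach the top of the ranking.

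The 12 protein-coding genes of the mitochondrial chromosome, which encode core subunits of the respiratory chain and of the ATP synthase, held 3.59% ± 0.514 of the reads. Their sums were 41551 CPM in wild type 1, 31547 CPM in wild type 2 and 34501 CPM in wild type 3, and 11 of the 12 were highest in wild type 1. The median log2 difference of wild type 1 from the others was 0.55 on the CPM scale and 0.42 after scaling by the trimmed mean of M values. Of the 12, atp-6, a subunit of the membrane part of the ATP synthase, had 17303, 8152 and 16430 CPM. Its level in wild type 2 was thus less than that in either other library, while its annotated exon shares bases with nduo-1. In contrast ctc-2, a subunit of cytochrome c oxidase, was highest in wild type 2 at 12313 CPM, against 9477 and 8182 CPM in wild type 1 and 3. The cytochrome c oxidase subunit ctc-3 had 5421, 4974 and 3643 CPM.

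The listed nuclear genes of the respiratory chain and the ATP synthase were lower in sum and less spread. Their 41 listed members summed to 16012, 17388 and 16535 CPM, 1.67% ± 0.0694 of the reads, and 40 were detected. The ADP/ATP carrier ant-1.1, counted with them, was the highest listed member per kb with 2632, 3594 and 3228 CPM. Y82E9BR.3, described as a mitochondrial ATP synthase lipid-binding protein, is not on the list. It stood higher, at 3500 CPM per kb against 2455 for ant-1.1. The cytochrome c oxidase subunit gene cox-6C had 889, 830 and 1086 CPM.

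Other housekeeping complexes were detected in full. The 39 translation elongation and initiation factors held 1.69% ± 0.0646 of the reads, and their highest member by CPM, eef-1A.1, which delivers aminoacyl-tRNA to the ribosome, had 4676, 5083 and 4996 CPM. By CPM per kb the eIF5A gene iff-1 came first, with 2294, 3037 and 2421 CPM. All 33 proteasome subunits were detected, with sums of 7255, 7156 and 6739 CPM, and pas-5 of the core particle had 404, 560 and 391 CPM. The 33 aminoacyl-tRNA synthetases, which charge tRNAs, summed to 2612, 2199 and 2500 CPM. The 12 subunits of RNA polymerase II summed to 2210, 1958 and 2115 CPM, and the 21 subunits of the vacuolar ATPase to 3359, 3135 and 2958 CPM. These 5 lists held every one of their members above the detection threshold.

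Energy metabolism showed the same completeness. The 22 glycolysis and gluconeogenesis genes summed to 2865, 2880 and 2495 CPM, led per kb by the enolase gene enol-1 at 437, 477 and 368 CPM. The 17 citric acid cycle genes summed to 2910, 2617 and 3024 CPM, with the malate dehydrogenase gene mdh-1 at 444, 471 and 439 CPM. Actins and tubulins held 0.524% ± 0.0170 of the reads, and 19 of 21 were detected. Among them act-2, an actin, had 713, 865 and 761 CPM and tbb-2, a beta-tubulin, 845, 818 and 804 CPM. Actin copies are alike in sequence, so the split of reads between them is uncertain.

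Among the heat shock proteins and chaperonins, 23 of 31 members were detected. The chaperone gene hsp-90 had 1654, 2591 and 1564 CPM, highest in wild type 2, while the hsp70-family gene hsp-1 had 1157, 1261 and 1219 CPM. Most of the undetected members were inducible small heat shock genes, namely hsp-16.1, hsp-16.11, hsp-16.41, hsp-16.48 and hsp-16.49, together with hsp-12.6, hsp-2 and hsp-70. Of the 31 members 4 had no read in any library. How reads shared between like copies were handled is not stated, so a lack of reads does not show that such a gene was silent. The small heat shock gene hsp-16.2 was just past the threshold, at a mean of 1.38 CPM.

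The labelled stage was set against markers of adult tissues and of other stages. Vitellogenins, the yolk proteins that the adult hermaphrodite intestine exports to oocytes, were all detected and summed to 5340, 5517 and 6185 CPM. The highest, vit-6, had 1817, 1769 and 2363 CPM and rank 90 of all genes, and vit-2 had 1214, 1374 and 1110 CPM. The lowest, vit-1, was steady at 302, 321 and 314 CPM. The reads of vit-3, vit-4 and vit-5, whose sequences are close copies, may be divided between them in ways the counts do not show. The adult-specific cuticle collagen col-19 had 403, 495 and 344 CPM and made up 88.2% of the summed level of the 5 adult cuticle collagens. The others of that list were much lower, with bli-2 at a mean of 31.3 CPM, col-62 at 17.2 CPM, bli-1 at 4.16 CPM and col-7 at 2.703 CPM.

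All 25 oocyte and eggshell genes were detected, with sums of 5775, 5874 and 6215 CPM. The eggshell genes led per kb: perm-2, of the permeability barrier, had 936, 925 and 1012 CPM, cpg-2, a chondroitin proteoglycan, 635, 859 and 778 CPM, and perm-4 414, 424 and 362 CPM. The lowest member, pie-1, a repressor of transcription in germ cell precursors, still had a mean of 38.5 CPM. Their sums differed by a smaller margin between libraries than those of the ribosomal proteins.

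The 30 germline genes, which cover stem cell regulators, germ granules and meiotic chromosome proteins, were all detected and summed to 1855, 1601 and 1775 CPM. Of them syp-2, of the synaptonemal complex, had 114, 112 and 124 CPM, htp-1, of the meiotic chromosome axis, 124, 75.9 and 121 CPM, and him-8, which binds the pairing center of the X chromosome, 99.3, 89.1 and 117 CPM. The lowest, fbf-1, a regulator of germline stem cells, had a mean of 10.03 CPM. The median member was lower in wild type 2, with a log2 difference of -0.28 on the CPM scale and -0.10 after scaling by the trimmed mean of M values. Less the length class the difference was -0.06.

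Of 60 sperm genes 50 were detected, with sums of 1720, 2236 and 1886 CPM. As a share of the summed CPM per kb they held 0.383%, beside 0.291% for the oocyte and eggshell genes. Of the detected members 38 were highest in wild type 2, and their median log2 difference there was 0.39 on the CPM scale, 0.40 less the length class and 0.58 after scaling by the trimmed mean of M values. The major sperm protein gene msp-81 had 144.5, 145.9 and 127.9 CPM, nspd-1 had 85.4, 100.6 and 83.1 CPM, and nspd-7 78.4, 73.9 and 104 CPM. None of these examples was raised in wild type 2 by as much as the list's median. The major sperm protein genes are near-identical copies, so the value of a single copy is uncertain. How reads shared between copies were handled is not stated, so the sum of the list may be too low as well.

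Male markers were near the floor. None of the 9 genes in that list, which act in male sensory neurons or in male sexual development, was detected, and their summed level was 4.82, 2.42 and 4.43 CPM. The polycystin gene lov-1 had no read in wild type 1 and 2 and 0.177 CPM, under the limit of a count of 0, in wild type 3. Its partner pkd-2 had 0.268, 0.269 and 0.354 CPM, under that limit in each library. The male sex determination gene her-1 had 1.07, 0.269 and 0 CPM. The highest member, cwp-4, had 1.07, 0.135 and 1.95 CPM, and its exons overlap mlk-1. These levels set no share of males, since no male library was analysed.

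Genes listed as markers of the early embryo were partly detected, 12 of 20, and summed to 221, 177 and 194 CPM. In whole adults these reads do not show whether a transcript was made in embryos or in the mother. The endoderm and mesoderm regulators end-1, end-3, med-1 and med-2 were among the 8 that were not detected. The highest were sdz-24, at 83.2, 86.0 and 97.8 CPM, whose exons overlap sri-45, and the caudal homologue pal-1 at 55.1, 27.6 and 23.9 CPM. Larval moulting genes were all detected, at a sum of 228, 207 and 212 CPM over 14 members, led per kb by mlt-8 at 40.4, 35.8 and 26.8 CPM. Their median, 16.4 CPM, was close to the 17.2 CPM of the adult cuticle collagens, while per length it was 5.32 against 16.8 CPM per kb.

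Markers of each somatic tissue examined were found. The 20 body wall muscle genes were detected and summed to 6215, 5432 and 6639 CPM. The troponin C gene pat-10 alone had 2204, 1991 and 2664 CPM, and the myosin light chain genes mlc-3 and mlc-2 followed with means of 913 ± 188 and 441 ± 50.9 CPM. Wild type 2 was lowest in this list's sum and in its median, with a log2 difference of -0.27, or -0.09 after scaling by the trimmed mean of M values. Less the length class that median was -0.02. Pharyngeal muscle was lower, with 8 of 8 genes and a sum of 328, 264 and 317 CPM, and the pharyngeal myosin heavy chain myo-2 had 20.6, 19.8 and 20.0 CPM.

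The 16 intestine genes summed to 4338, 4882 and 4177 CPM. The aspartic protease asp-1 had 1216, 1625 and 941 CPM and the metallothionein mtl-2 566, 854 and 455 CPM. Both were highest in wild type 2 and lowest in wild type 3, whereas the cathepsin B-like protease cpr-4 had the reverse order, at 447, 388 and 547 CPM. The intestine list was therefore not moved as one in any library.

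Epidermis genes gave nearly the same sum in every library on the CPM scale, at 1227, 1224 and 1221 CPM over 14 detected genes. After scaling by the trimmed mean of M values, their median log2 differences from the other libraries were -0.14, 0.09 and -0.09 in wild type 1 to 3. The cuticle collagen dpy-13 had 370, 382 and 382 CPM and the collagen sqt-3 260, 296 and 257 CPM. The wider col family of cuticle collagens had 76.7% of its 159 genes detected and held 2.12% ± 0.136 of the reads. Its leading members col-20, col-140 and col-122 had means of 1638 ± 351, 1534 ± 35.8 and 1445 ± 87.1 CPM. The ranges of col-140 and col-20 overlapped, so these leading members cannot be ordered beyond their spread.

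Neuron genes summed to 505, 499 and 513 CPM with 18 of 20 detected. The synaptic vesicle gene snb-1 had 283, 301 and 312 CPM and made up most of it, while unc-119 had 20.9, 22.4 and 20.9 CPM and the SNAP-25 homologue ric-4 35.1, 30.96 and 28.4 CPM. The transmitter synthesis genes cat-2 (dopamine) and tph-1 (serotonin), used in few neurons, were not detected. Of the 147 genes for FMRFamide-like, neuropeptide-like and insulin-like peptides 83.0% were detected, with sums of 3695, 3756 and 3560 CPM. The highest by CPM was nlp-77, with 387, 334 and 406 CPM, which held 10.2% of the list's summed level. Per kb the list was led by nlp-33 (264, 441 and 277 CPM) and nlp-27 (222, 364 and 232 CPM), known as antimicrobial peptides of the epidermis, and both were highest in wild type 2. The third by that scale, nlp-24, had 295, 287 and 278 CPM and was not.

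Of 9 somatic gonad genes 7 were detected, and the gonadal sheath innexin inx-8 had 69.3, 58.3 and 41.99 CPM. The median of the detected members in wild type 2 was lower than in the others by -0.81 on the log2 scale, -0.62 after scaling by the trimmed mean of M values and -0.61 less the length class. On the CPM scale that median was the value of ipp-5, which had 46, 49 and 61 reads in wild type 1 to 3. The spermatheca gene sth-1, however, was highest in wild type 2, at 20.3 CPM against 12.6 and 14.9 CPM. All 3 coelomocyte genes were detected. The highest, cup-4, had 10.97, 11.3 and 11.7 CPM, and was nearly even between the libraries. Its fellow members were lower and highest in wild type 2, lgc-26 with 2.94, 4.71 and 2.48 CPM and unc-122 with 2.41, 4.04 and 2.66 CPM. The list's median log2 difference in that library was that of unc-122, which had only 9, 30 and 15 reads in wild type 1 to 3. It was 0.67 on the CPM scale, 0.86 after scaling by the trimmed mean of M values and 0.87 less the length class.

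**Figure D3:**
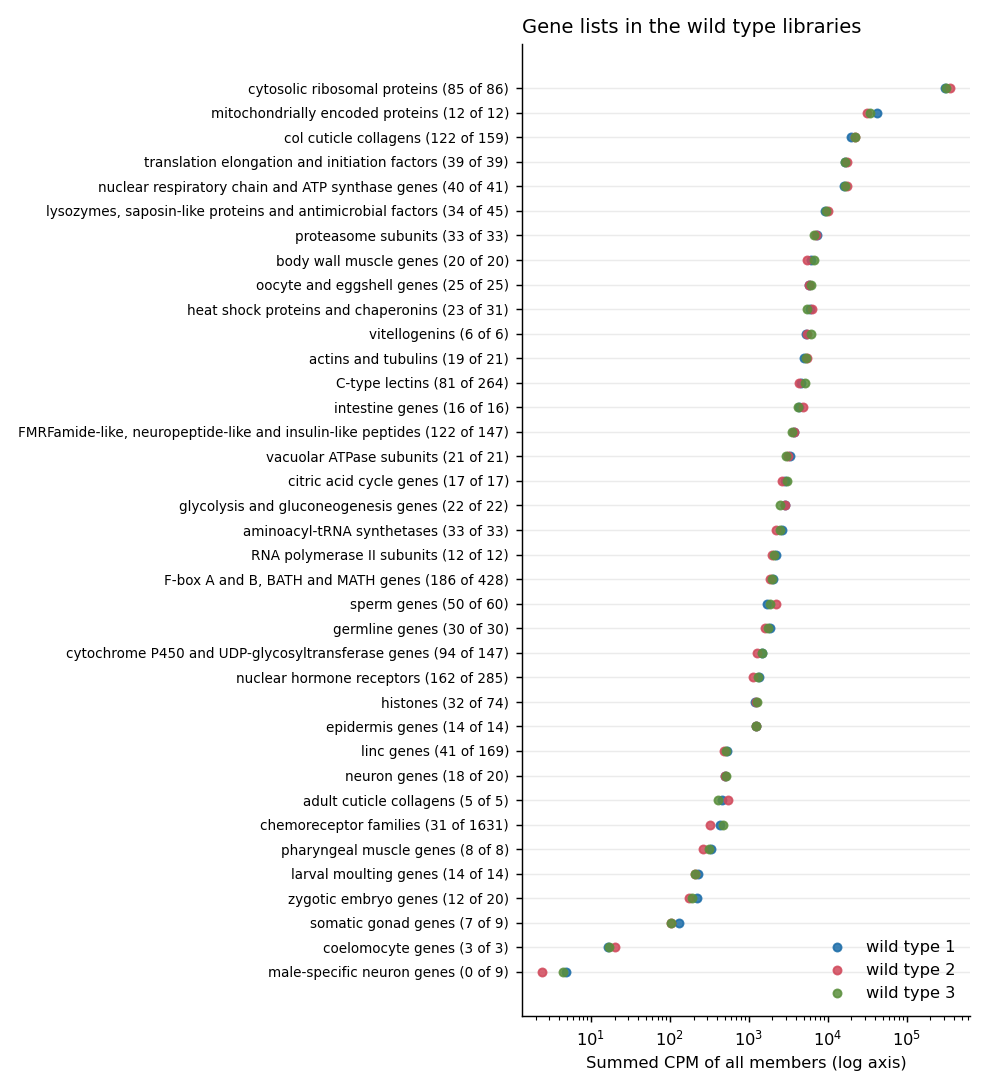
Summed CPM of all members of each gene list (x axis, log scale), with 1 point per wild type library and the number of detected members out of all members beside each name. The lists run from the ribosomal proteins at 301597 CPM or more down to the male-specific genes under 5 CPM, where wild type 2 has 2.42 CPM against 4.82 and 4.43 CPM.

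Immune effector families were led by a few genes. Lysozymes, saposin-like proteins and antimicrobial factors had 34 of 45 members detected and held 0.963% ± 0.0469 of the reads. The saposin-like genes spp-5, at 1435, 2169 and 1280 CPM, and spp-14, at 1226, 1374 and 966 CPM, lie on the X chromosome, as does the lysozyme ilys-5 with 2305, 2038 and 2714 CPM. C-type lectins had 81 of 264 members detected. The lectin clec-87 had 1667, 1593 and 1889 CPM and clec-50 708, 554 and 766 CPM, out of sums of 4574, 4287 and 5163 CPM for the family.

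Chemoreceptor genes were mostly below detection. Of 1631 chemoreceptor genes, which encode candidate odorant receptors of sensory neurons, 31 (1.90%) were detected, beside 58.5% of all genes, and 552 had no read. Their sums were 435, 324 and 469 CPM. The highest, sri-40, had 35.3, 28.5 and 30.5 CPM, followed per kb by srw-85 at 20.9, 17.6 and 31.9 CPM. The receptor for diacetyl, odr-10, was the lowest of the detected ones, at a mean of 1.25 CPM. Of 285 nuclear hormone receptors 162 (56.8%) were detected, with nhr-114 at 36.9, 33.8 and 31.9 CPM, and of 428 F-box, BATH and MATH genes 186, with fbxa-215 at 140, 148 and 128 CPM. Cytochrome P450 and UDP-glycosyltransferase genes had 94 of 147 detected, led by cyp-31A2 at 138, 88.4 and 189 CPM.

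Histone genes were detected in 32 of 74 cases and 30 had no read in any library. Polyadenylated RNA was sequenced, so a histone mRNA without a poly(A) tail could be missed, and no read does not show that such a gene was silent. The highest per kb, his-72, encodes the H3.3 variant and had 279, 244 and 252 CPM, and another H3 variant gene, his-74, had 187, 238 and 178 CPM. Histone copies are near-identical, and the values of single copies are uncertain.

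Gene types differed strongly in how many of their genes were detected. Protein-coding genes had 12786 of 20191 detected (63.3%) and held 99.56% ± 0.0433 of the reads. Pseudogenes had 251 of 1922 (13.1%) and 0.358% ± 0.0424 of the reads, long intergenic noncoding RNAs 45 of 176 (25.6%) and 0.0749% ± 0.00163, and antisense RNAs 4 of 100 and 0.00508% ± 0.00124. The 7 other gene types of the table (piRNA, ncRNA, tRNA, snoRNA, miRNA, snRNA and rRNA) carry no count and were not analysed here. No source used here says whether counting used the strand, so overlapping genes on opposite strands may share reads. Of the 161 genes that the naming rule picked, 48 have exons that overlap another gene. Exons of 3 of the 4 detected antisense genes and of 16 of the 45 detected intergenic ones overlap another gene.

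The highest long intergenic RNA was lep-5 at X:12652591-12653520, a regulator of developmental timing, with 201, 225 and 160 CPM (mean 195 ± 33.1). It ranked 659th of all genes. Next came linc-7, at X:16002599-16003728, with 129, 156 and 133 CPM (mean 139 ± 14.5). The gene linc-4 at II:6268939-6269516, the one deleted in the study's other group, had 51.7, 46.4 and 41.5 CPM (mean 46.5 ± 5.10) and ranked 3127th. With 216 bp of exon it was the highest per kb of the linc genes, at 215 CPM per kb. The ranges of lep-5, linc-7 and linc-4 did not overlap in CPM. Per kb linc-7 stood below linc-4, at 123 against 215 CPM per kb. M04F3.7, at I:4768331-4769063, followed with 37.2, 36.4 and 54.04 CPM (mean 42.5 ± 9.98), and its range overlapped that of linc-4, so their order is within the spread.

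Below these stood linc-15 with 25.96, 31.2 and 34.9 CPM, linc-8 with 24.9, 26.1 and 26.1 CPM and linc-5 with 27.3, 17.8 and 17.4 CPM, whose order is within their spread. Of the 169 genes with a linc name 41 were detected, and 33 of the 169 lie on the X chromosome, where 8 were detected. The median detected long intergenic RNA had 3.65 CPM, beside 14.7 CPM for protein-coding genes, but 8.97 CPM per kb beside 9.98. Their median CV was 27.2%, against 18.2% for protein-coding genes, and lower levels carry more counting error. Detected linc genes had a median log2 difference of -0.43 in wild type 2 on the CPM scale and -0.25 after scaling by the trimmed mean of M values.

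Among pseudogenes the highest was F07H5.5 at II:8787770-8789716, with 631, 575 and 658 CPM. F07H5.3, which lies close by at II:8784535-8785513 on the same strand, had 222, 237 and 285 CPM. The pseudogene rrn-3.56 at I:15060299-15061150 was uneven, with 144, 92.8 and 307 CPM. The highest antisense RNA, anr-8, had 22.5, 21.1 and 36.7 CPM, with no exon overlap in the annotation.

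Genes with a class name and those known only by a sequence name also differed. Of 10215 protein-coding genes with a class name 67.5% were detected, and they held 78.1% ± 0.869 of the reads. Of 9976 with a sequence name alone 59.1% were detected, and they held 21.4% ± 0.833. Among the 1000 highest genes, 726 had a class name and 269 a sequence name. After Y37E3.8 and C37A2.7 the next of the latter were Y82E9BR.3 (1829, 1707 and 2816 CPM) and C17F4.7 (2081, 1459 and 2550 CPM). Y82E9BR.3 is described as a mitochondrial ATP synthase lipid-binding protein. The neighbours F23A7.8 (1136, 1109 and 1511 CPM) and F23A7.4 (961, 942 and 1372 CPM) on the X chromosome were both highest in wild type 3.

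The chromosomes did not share the reads in proportion to their genes. Chromosome I held 13.9% of the genes and 24.4% ± 0.376 of the reads, and chromosome III 12.7% of the genes and 20.2% ± 0.309 of the reads. Chromosome V, with 26.5% of the genes, held 14.5% ± 0.151, and the X chromosome, with 13.2% of the genes, held 6.04% ± 0.231. Chromosome II held 17.1% of the genes and 12.5% ± 0.283 of the reads, and chromosome IV 16.6% and 18.8% ± 0.218. In every library chromosome I had the largest share and the X chromosome the smallest of the nuclear chromosomes. The distances between chromosomes were larger than the SDs.

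The ribosomal protein genes carried part of these differences. Chromosome I has 26 of them, chromosome III 20, chromosome IV 19, chromosome II 11, chromosome V 8 and the X chromosome 2. With them and the mitochondrial genes left out, the share of the X chromosome was 9.18% ± 0.225 and that of chromosome I 20.6% ± 0.118, and the X chromosome stayed the lowest. That setting was added after the values had been seen.

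On the X chromosome 60.1% of the genes were detected, close to the 58.5% of all genes, but at lower levels. The median detected gene of the X chromosome had 5.61, 4.73 and 5.35 CPM per kb, a mean of 5.23 ± 0.450, against 10.8 ± 0.800 for the autosomes. Their ratio was 0.486 in wild type 1, 0.476 in wild type 2 and 0.491 in wild type 3, or 0.484 ± 0.00785 (SD, n = 3). The ratio differed less between libraries than either median did. Taken over all genes, detected or not, it was 0.809. Only ilys-5 represented the X chromosome among the 100 highest genes, and 76 of its genes (2.58%) were among the 1000 highest, beside 214 (6.89%) on chromosome I and 196 (6.89%) on chromosome III.

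The gene lists were spread unevenly over the X chromosome, which holds 13.2% of all genes. None of the 60 sperm, 25 oocyte and eggshell or 30 germline genes lies on it, nor any of the 33 proteasome subunits, 33 aminoacyl-tRNA synthetases or 12 RNA polymerase II subunits. In contrast 5 of the 6 vitellogenins and 8 of the 20 body wall muscle genes do. These counts describe the lists as chosen and carry no test.

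Chromosome V had the lowest detected share, 41.9% of 5926 genes, and also 1113 of the 1631 chemoreceptor genes, 18.8% of its genes. Without the chemoreceptors 51.3% of its genes were detected, still below the 60.8% of the X chromosome and the 74.0% of chromosome III counted the same way. Chromosome V was the lowest with and without the receptors.

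Each chromosome was cut into 5 segments of equal length, counted from the left end. On each autosome the middle segment had the largest detected share, with or without the chemoreceptors. With all genes counted, the middle segment of chromosome III hardly exceeded the second, at 76.68% against 76.64%. On chromosome V the detected share by segment was 34.3%, 51.3%, 58.0%, 38.3% and 29.1%. The chemoreceptors carried part of this rise, as they were fewest in the middle segment. Without them the share was 48.4% in the first segment, 63.2% in the third and 34.1% in the last. The third segment then stood little above the second. On chromosome II the detected share of all genes was 41.3%, 57.1%, 73.3%, 68.1% and 60.5%. The median level followed on chromosome V, at 5.60 ± 0.453 CPM per kb in the first segment, 11.6 ± 0.901 in the third and 6.78 ± 0.745 in the last. On chromosome III it was 7.29 ± 0.891 in the first segment, 17.2 ± 1.95 in the third and 13.9 ± 1.07 in the last. The level did not peak in the middle everywhere. On chromosome II the highest median was in the segment after the middle one, 14.9 ± 1.48 against 11.6 ± 0.652, and on chromosome I the second to the fourth segment had 14.2 ± 1.11, 14.8 ± 1.48 and 14.6 ± 1.52, within the spread of the libraries.

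The X chromosome showed no such rise in level. Its segments had medians of 5.27 ± 0.439, 5.40 ± 0.725, 5.41 ± 0.639, 5.13 ± 0.565 and 5.06 ± 0.545 CPM per kb, which differ by less than the spread between libraries. The first segment of chromosome V lay within that spread too, while the third segments of all 5 autosomes lay above it. The detected share of the X chromosome went from 54.8% in the first segment to 66.6% in the second.

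**Figure D4:**
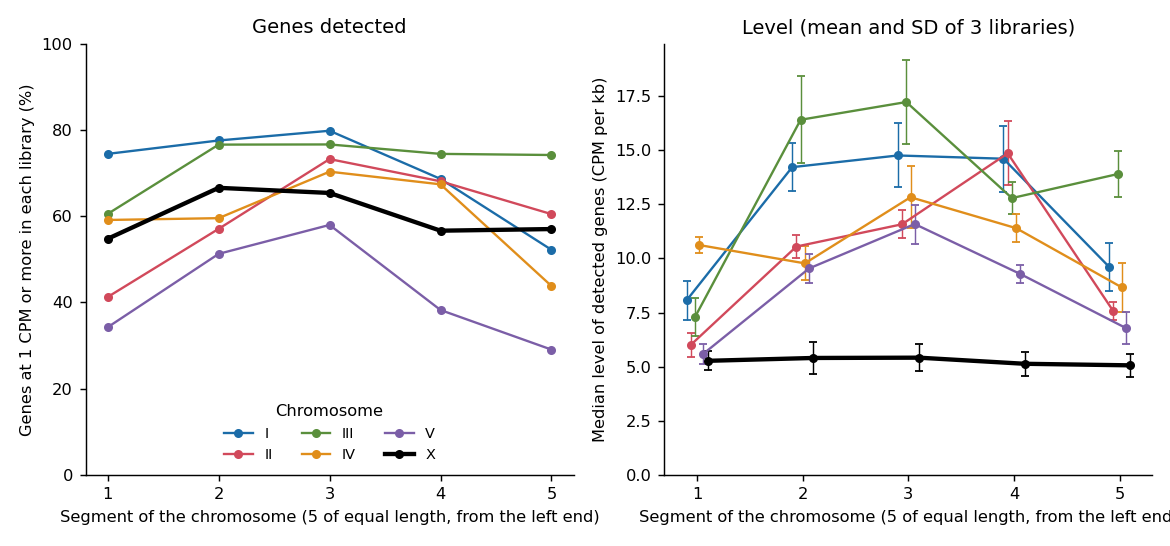
Percent of genes detected (left) and median level of the detected genes in CPM per kb (right; mean and SD of 3 libraries) by segment (5 of equal length) of each nuclear chromosome from its left end (x axes), with 1 line per chromosome. The medians of the X chromosome (thick black line) stay between 5.06 and 5.41 CPM per kb, while chromosome III rises from 7.29 to 17.2.

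The spread between the libraries depended on the level. The median CV of all detected genes was 18.4%, and 12.8% of them (1675 genes) differed by more than 2-fold between the highest and the lowest library. For genes from 1 to 3 CPM the median CV was 26.4%, where counting error alone gives 30.4%. Detection needs 1 CPM in each library, which limits the CV of this class. Spread beyond counting in it cannot be read from these values. From 300 to 1000 CPM it was 12.4%, where counting gives 2.12%, and above 1000 CPM it was 15.5%, where counting gives 0.823%. Beyond counting error the CV was between 15.8% and 20.2% in each class above 3 CPM. It is the root of a mean over genes and not a median, so it can exceed the medians above and is not a part of them. Without wild type 2 the median CV of the detected genes was 12.6%.

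**Figure D5:**
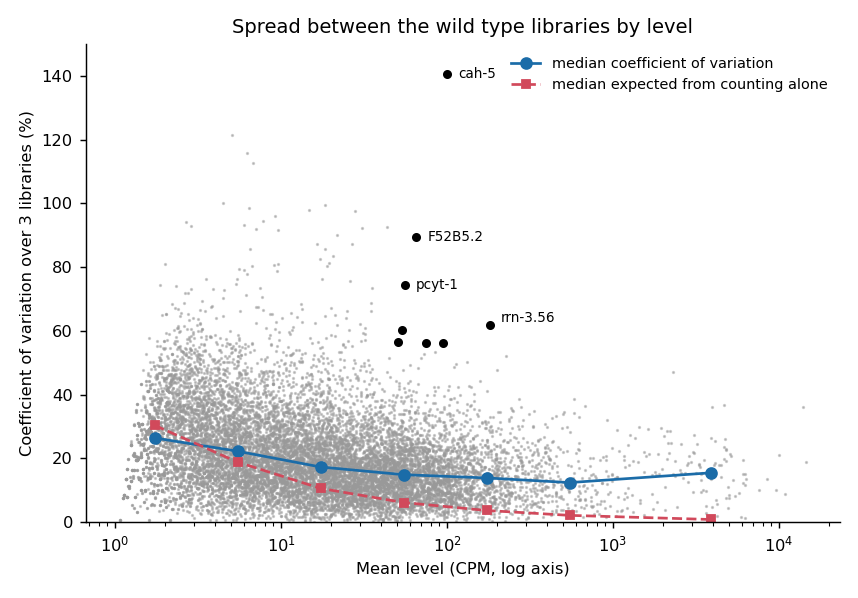
CV over the 3 wild type libraries in percent (y axis) against the mean CPM of each detected gene (x axis, log scale; grey points), with the median per level class (blue circles), the median that counting alone gives (red squares) and the 8 most variable genes at 50 CPM or more (black points). The observed median flattens near 12.4% to 15.5% above 100 CPM while the counting line falls to 0.823%, and cah-5 stands highest at 141%.

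Among the 2931 genes with a mean of at least 50 CPM the median CV was 14.1%, 97 genes (3.31%) passed 2-fold and 2 passed 4-fold. Wild type 2 was the lowest library for 1533 of them (52.3%) and wild type 1 the highest for 1182 (40.3%) on the CPM scale, which the scaling shifts. More than 1.5-fold below both others were 155 genes in wild type 2, 9 in wild type 3 and 0 in wild type 1. More than 1.5-fold above both were 52 genes in wild type 1, 32 in wild type 2 and 28 in wild type 3.

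The most variable of these was cah-5, a carbonic anhydrase gene at X:7020033-7023950, with 18.7, 18.98 and 264 CPM and a CV of 141%. The rise was seen in wild type 3 only, and was 14.1-fold between the highest and lowest library. Its nearest detected neighbours, tyra-2 (2.68, 5.12 and 1.95 CPM) and flp-26 (19.5, 16.8 and 16.3 CPM), were not raised in that library. F52B5.2 had 133, 29.2 and 34.02 CPM, and its neighbours F52B5.7 (8.56, 11.3 and 8.33 CPM) and F52B5.3 (25.7, 14.3 and 12.6 CPM) did not move by as much.

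Of the 8 most variable genes, 6 were highest in wild type 1 and 2 in wild type 3. The phosphatidylcholine synthesis gene pcyt-1 had 103, 25.9 and 38.3 CPM, the small GTPase gene rab-10 123, 43.2 and 59.2 CPM, and the triosephosphate isomerase gene tpi-1 154, 76.5 and 52.5 CPM. The genes chdp-1 (91.3, 32.9 and 37.6 CPM) and lst-4 (84.0, 35.8 and 33.0 CPM) had the same high library, and rrn-3.56 was the other that was highest in wild type 3. Of the 40 most variable genes, 24 were highest in wild type 1 and 28 lowest in wild type 2, and 4 were mitochondrially encoded. Leaving out wild type 1 kept 2 of the 8 among the 8 most variable, leaving out wild type 2 kept 5 and leaving out wild type 3 kept 3.

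At the other end, rfc-4, a subunit of the clamp loader of DNA replication, had 187.3, 186.8 and 188.0 CPM, a CV of 0.310%. The mitochondrial import gene tin-10 had 224, 225 and 224 CPM, and swd-2.2 114, 113 and 114 CPM, with exons that overlap swd-2.1. With 3 libraries some genes lie this close within counting error alone, and these values rank the genes without a test. Scaling by the trimmed mean of M values shifts wild type 2 by 0.18 on the log2 scale against the mean of the others. The ranking by low CV was not repeated on that scale, so this closeness holds for CPM only.

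The counts were checked for a library deposited more than once. In a chi-square comparison of their counts, the statistic over its degrees of freedom was 6.65 for wild type 1 and 3, and 19.5 for wild type 2 and 3, where the sampling of independent reads gives about 1. The libraries thus differed by more than that sampling, which separate preparations of the same RNA would do as well, and each was kept as a library of its own. Across detected genes, which are not independent replicates, the Pearson correlation of log2 CPM was 0.972, 0.979 and 0.974 for wild type 1 and 2, 1 and 3, and 2 and 3. By the correlation wild type 1 and 3 were the closest pair. They also had the lowest chi-square value, but that statistic grows with depth, so it does not rank pairs of unlike depth.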

How the data were processed

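Per the labels' protocols, TRIzol and a spin-column kit were used for the RNA, mRNA was enriched and fragmented, and cDNA was made from it. The submitters' processing notes name the build WBcel235 and, with no order, DESeq2 1.22.2, HTSeq 0.12.4, TopHat2 2.1.1 and cutadapt 2.10. No source used here states their settings, the strandedness or how shared reads were handled. The values used are the authors' deposited raw read counts per gene, whole numbers with a question mark in place of a value for 24515 rows, which were left out. For that reason the column was registered as another kind of value than plain counts and no count model was run.

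The members and the gene lists were chosen with earlier results of these data known. After levels were seen, the chemoreceptor pattern was narrowed and rpl-36.A, C37A2.7 and W01D2.1 were added to the ribosomal proteins. Of the listed names 3 (trp-3, opt-2 and daf-21) matched no row. For CPM, counts were divided by the summed gene counts of the library, and exon lengths were the union of exons in Ensembl release 115 (WBcel235), which matched 22302 of the 22389 genes (99.6%); 7842 of these had the same start and end, and coordinates are those of the deposited table. Depth per library was 3736372 to 7428665 reads. The CV beyond counting was the root of the mean of variance minus counting variance over squared mean, and was tested on simulated counts.

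Genes named are the 12 highest by CPM and by CPM per kb, the highest of each chromosome and gene type, the 3 highest per kb of each list (all of lists of up to 9), the 8 most and 4 least variable with a mean of at least 50 CPM and the 5 highest linc genes, 161 in all, 48 of them with exons that overlap another gene. Others were named after their values were seen: the lowest or undetected members of a list, neighbours, further sequence-named and noncoding genes, pseudogenes, and runners-up such as rpl-10. One group of 3 libraries gives no comparison between groups and no test of one; a chi-square over genes was computed for each pair of libraries only as a check for repeated deposits. Alternatives were other scalings (trimmed mean of M values, median of ratios), other detection rules, thinning to the shallowest library, other length scales, leaving out gene sets and leaving out each library. Python 3.11.15, numpy 2.4.6, pandas 2.3.3, scipy 1.17.1 and matplotlib 3.10.9 were used.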

Additional observations from a re-analysis of the deposited data

How the results depend on the processing

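Leaving out 1 library at a time gave 13302 to 13661 detected genes (13086 with all 3), a share of the 100 highest genes of 39.5% to 41.9%, 179 to 222.5 genes at 50% of the reads, a protein-coding share of 99.54% to 99.58%, a ribosomal protein share of 30.9% to 33.6%, an X chromosome share of 5.93% to 6.16%, an X to autosome ratio of 0.481 to 0.494 and a median CV of 12.6% to 16.6%. Of the 8 most variable genes 2 to 5 were kept, and 5 under either the trimmed mean of M values or the median of ratios. Counting any gene with a read in any library gave 20041 genes, and the median CV over these was 26.1%. At least 10 reads in each library gave 11462 genes, the 2 scalings 13231 and thinning to the shallowest library 13047. The X to autosome ratio of 0.484 was 0.809 over all genes, where undetected genes enter both medians, 0.476 over protein-coding genes and 0.535 without division by length. Settings chosen after seeing the data gave an X share of 9.18% without ribosomal protein and mitochondrial genes, and, as shares of summed CPM per kb, 5.71% for the X chromosome and 44.7% for the ribosomal proteins. The causes of these moves were not tested. On that scale 38 of the other 42 list and chromosome shares moved by more than 1 SD. No ribosomal RNA gene carried a count, so leaving those out with the mitochondrial genes removed only the latter; the ribosomal protein share was then 33.6%. Levels of the named genes were not recomputed without each library. No paired analysis was possible because the results describe 1 group and come from no test. Depth limits statements about genes under 3 reads per library.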
